A study of Arabidopsis thaliana with 16 samples.

Results

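The avrB response of atgsnor1-3 was set against the avrB response of Col-0, gene by gene, in leaf tissue of 4-week-old Arabidopsis thaliana. The 8 arrays used, of 16 in the series, were chosen by their titles: 2 arrays of atgsnor1-3 taken 6 h after avrB, 2 of untreated atgsnor1-3, 2 of Col-0 taken 6 h after avrB and 2 of untreated Col-0. Plants grew on compost at 20 °C and 65% relative humidity with 18 h of light a day, and total RNA was hybridised to Affymetrix ATH1 arrays. The other 8 arrays, of the atgsnor1-1 and sid2 genotypes under the same treatments, entered the fit for its estimate of spread and serve as a further comparison at the end. The labels give no mock inoculation, no dose and no statement that the arrays of a group came from separate plants, so each p-value measures only the spread between these arrays, which may be technical.

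GSNOR1 encodes S-nitrosoglutathione reductase, the enzyme that removes S-nitrosoglutathione, a carrier of nitric oxide that modifies cysteines of proteins (S-nitrosylation). In atgsnor1-3 the enzyme is known to be missing, S-nitrosothiols are raised and salicylic acid signalling is weakened. The atgsnor1-1 line is known to have more of the enzyme's activity, and sid2 to lack isochorismate synthase and make little salicylic acid on infection. avrB is an effector gene of Pseudomonas syringae whose product is recognised in Col-0 through the resistance protein RPM1, a recognition that leads to the hypersensitive response, a rapid local cell death. The signal of GSNOR1 itself was not analysed here, so no array's genotype was checked in that way.

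The quantity described throughout is the interaction, the atgsnor1-3 response (avrB 6 h minus untreated) minus the Col-0 response, on the log2 scale of the authors' MAS5 signal. A positive interaction means a larger rise, or a smaller fall, in atgsnor1-3. It was called at a limma adjusted p under 0.05 and a size of at least 1, and a value written with ± is an estimate with its standard error. Array medians lay between 33.0 and 40.8 signal units, and the untreated atgsnor1-3 pair was the least alike of all groups, at a Pearson correlation of 0.920 across probe sets. Both untreated Col-0 arrays were closer to an untreated atgsnor1-1 array than to each other, and the first untreated atgsnor1-3 array was closer to an untreated sid2 array (0.931) than to its partner. The leaf markers RCA, Rubisco activase, and PRK, phosphoribulokinase, were bright on all 8 arrays, at 2964 to 7364 and 1053 to 5180 units, while the root marker EXPA7 stayed between 3.00 and 44.2 units. In such bulk tissue, fewer cells of a type and less RNA per cell cannot be told apart.

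The interaction was called for 2055 of 13647 probe sets tested, 15.1%, with 926 higher in atgsnor1-3 (6.79%) and 1129 lower (8.27%). The median over all probe sets tested was -0.04. Responses were called for 4767 probe sets in atgsnor1-3 (34.9%, with 15.0% higher and 20.0% lower) and for 1690 in Col-0 (12.4%, with 7.31% higher and 5.07% lower). The higher interactions reached 7.44, with 322 of at least 2, and the lower ones reached -5.49, with 306 of at most -2. A single locus was attached to 1011 of the called probe sets, and the genes named here come from these.

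**Figure D1:**
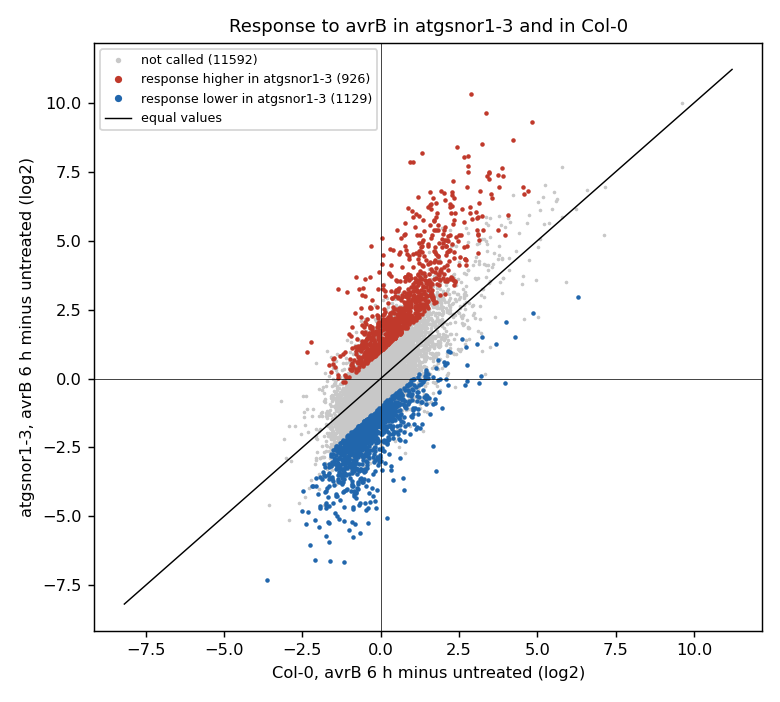
Each point is a probe set, with its response to avrB (log2, avrB 6 h minus untreated) in atgsnor1-3 on the y axis and in Col-0 on the x axis; red and blue points have an interaction called higher (926) or lower (1129), grey points have none, and the line marks equal responses. Red points lie mostly where atgsnor1-3 rose and blue points mostly where it fell.

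The higher interactions were mostly rises that were larger in atgsnor1-3. Of the 926, 528 (57.0%) had a rise called in atgsnor1-3 and no response called in Col-0, and 294 (31.7%) had a rise called in both genotypes. A further 85 had no response called in either genotype, 17 a fall called in Col-0 with no call in atgsnor1-3, and 2 a rise in atgsnor1-3 with a fall in Col-0. The lower interactions were mostly falls: 792 of 1129 (70.2%) had a fall called in atgsnor1-3 and no response called in Col-0, and 185 (16.4%) had a fall called in both. Their remainder held 76 with no response called, 56 with a rise called in Col-0 and none in atgsnor1-3, 11 that fell in atgsnor1-3 and rose in Col-0, and 9 that rose in both. Without the first untreated Col-0 array the group of 56 numbered 103. A response that was not called was not shown to be absent. The median Col-0 response was 0.58 over the 926 and -0.44 over the 1129.

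The same interactions can be read as a gap between the genotypes at rest and after avrB, which share the arrays of the responses and so are another view of the same values. Over all probe sets, 13.1% were called between the genotypes after avrB and 8.79% at rest. Of the 926 higher interactions, 433 (46.8%) were called lower in atgsnor1-3 than in Col-0 at rest, where 6.5% of all probe sets were, and 313 (33.8%) were called higher after avrB, where 4.32% were. The 313 numbered 208 without the second atgsnor1-3 avrB array. The median gap of these 926 was 0.76 after avrB and -0.95 at rest. The lower interactions had the opposite balance, with a median gap of -1.15 after avrB and 0.49 at rest. Of the 1129, 648 (57.4%) were called lower in atgsnor1-3 after avrB, where 8.76% of all probe sets were, and 139 (12.3%) were called higher at rest, where 2.29% were, or 229 without the first untreated Col-0 array. The interaction is the gap after avrB minus the gap at rest, so choosing probe sets by it raises these shares above those of all probe sets. The excess is therefore no separate result. As a description, 433 of the 926 higher interactions began lower in untreated atgsnor1-3, and 648 of the 1129 lower ones ended lower after avrB.

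**Figure D2:**
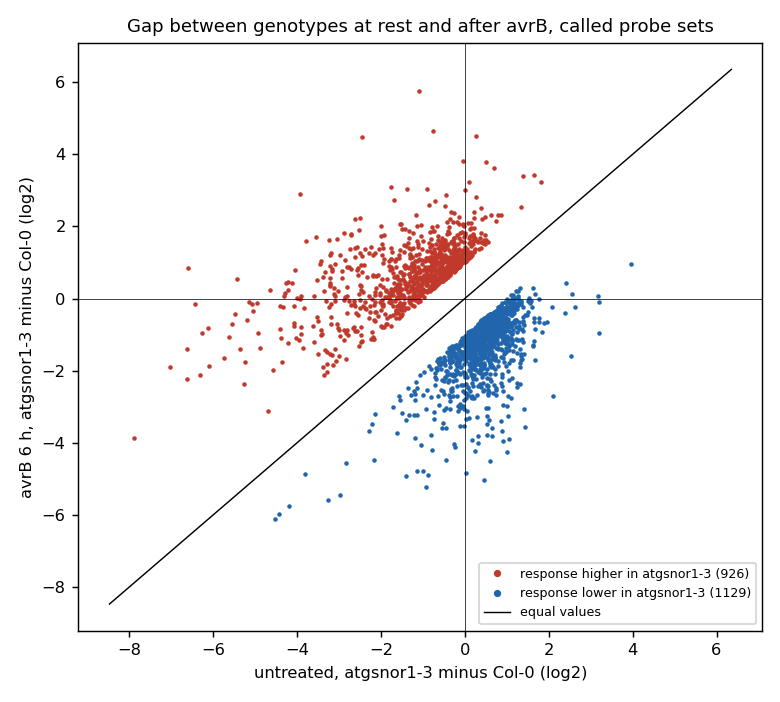
Each point is a probe set with a called interaction, with the log2 gap (atgsnor1-3 minus Col-0) after avrB on the y axis and at rest on the x axis; the line marks equal gaps. Red points (926, interaction higher) have a median gap of -0.95 at rest and blue points (1129, interaction lower) a median gap of -1.15 after avrB.

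The largest interaction of a probe set with 1 locus belonged to AT3G01830, which had 1382 and 1378 units in atgsnor1-3 after avrB and 0.796 and 1.44 units in untreated atgsnor1-3, against 728 and 824 units in Col-0 after avrB and 93.8 and 115 units in untreated Col-0. It was near background on both untreated atgsnor1-3 arrays and bright on both avrB arrays, and no group overlapped another. Its response was 10.33 ± 0.26 in atgsnor1-3 and 2.90 ± 0.26 in Col-0, an interaction of 7.44 ± 0.36 (adjusted p = 1.31e-08). The next, AT5G51440, had 994 and 1064 units in atgsnor1-3 after avrB and 18.7 and 1.06 units in untreated atgsnor1-3, against 50.6 and 42.8 units in Col-0 after avrB and 32.1 and 18.2 units in untreated Col-0. Untreated atgsnor1-3 was low on both arrays, though the 2 arrays differed widely, and only atgsnor1-3 after avrB stood above the rest. The interaction was 6.91 ± 1.19 (adjusted p = 0.000791). AT2G41730 showed the same layout, with 1952 and 2368 units in atgsnor1-3 after avrB and 42.8 and 11.5 units in untreated atgsnor1-3, against 90.1 and 81.0 units in Col-0 after avrB and 51.2 and 27.8 units in untreated Col-0. Its level after avrB in atgsnor1-3 exceeded that on every other array of these groups, and the interaction was 5.42 ± 0.61 (adjusted p = 2.17e-05). Another layout was that of AT1G57630, with 1248 and 1381 units in atgsnor1-3 after avrB and 3.09 and 0.872 units in untreated atgsnor1-3, against 1229.6 and 1713 units in Col-0 after avrB and 120.3 and 164 units in untreated Col-0. After avrB the genotypes overlapped, and the interaction of 6.28 ± 0.53 (adjusted p = 2.26e-06) comes with a gap at rest of -6.42 ± 0.38. Signals under 20.2 units lie in the range that was filtered out by mean, so for a gene that starts there the direction is firmer than the size. With a pseudocount of 9.51 units added to each signal, the interactions of AT3G01830 and AT1G57630 were 4.24 and 3.57.

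Most tested genes of a list known to answer mitochondrial dysfunction had higher interactions. Plants respond to impaired respiration by raising alternative respiratory enzymes and a set of stress proteins encoded in the nucleus. Of 14 listed genes, 4 had a matched probe set and were tested. Among these 4, 3 were called higher (against 6.79% of all probe sets) and none lower. Their median interaction was 3.10 against -0.04 for all probe sets. AT2G21640 had 1009 and 1289 units in atgsnor1-3 after avrB and 64.1 and 32.3 units in untreated atgsnor1-3, against 51.0 and 48.5 units in Col-0 after avrB and 55.3 and 26.0 units in untreated Col-0. It was high only in atgsnor1-3 after avrB, where both arrays exceeded all the others of these groups, and the groups otherwise overlapped. Its interaction was 4.26 ± 0.56 (adjusted p = 7.76e-05). NDB2, an alternative NAD(P)H dehydrogenase on the outer face of the inner mitochondrial membrane, had 931 and 936 units in atgsnor1-3 after avrB and 86.1 and 115 units in untreated atgsnor1-3, against 358 and 347 units in Col-0 after avrB and 114 and 181 units in untreated Col-0. It rose in both genotypes, more so in atgsnor1-3, with an interaction of 1.94 ± 0.32 (adjusted p = 0.000514). AT5G51440, given above, was the third, and AT1G05060, at 0.92 ± 0.26, was not called. AT1G05060 was at 1.02, 1.03 and 1.15, and called, without the first untreated Col-0, the second untreated atgsnor1-3 or the first atgsnor1-3 avrB array.

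Other mitochondrial genes, chosen for their roles after their values were seen, are given beside that list. CYTC-2, a cytochrome c that carries electrons between respiratory complexes, had 974 and 983 units in atgsnor1-3 after avrB and 111 and 85.8 units in untreated atgsnor1-3, against 292 and 212 units in Col-0 after avrB and 135 and 119.9 units in untreated Col-0. All 4 groups were separate, with atgsnor1-3 highest after avrB and lowest at rest, and the interaction was 2.36 ± 0.27 (adjusted p = 2.6e-05). BIGYIN, a FISSION1 protein that takes part in the division of mitochondria and peroxisomes, had an interaction of 1.61 ± 0.27 (adjusted p = 0.000604). It averaged 1008 ± 14.3 units in atgsnor1-3 after avrB and 267 ± 20.7 in untreated atgsnor1-3, against 453 ± 9.80 in Col-0 after avrB and 367 ± 22.1 in untreated Col-0 (SD, n = 2 each).

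Salicylic acid is the hormone through which infected tissue switches on many defence genes. Of 30 listed genes, 5 had a matched probe set and were tested. Of these 5, 2 were called higher (against 6.79% of all probe sets) and none lower, with a median interaction of 1.39. GRX480, a glutaredoxin induced by salicylic acid that binds TGA transcription factors, had 322 and 291 units in atgsnor1-3 after avrB and 6.50 and 5.99 units in untreated atgsnor1-3, against 504 and 542 units in Col-0 after avrB and 163 and 66.8 units in untreated Col-0. Untreated atgsnor1-3 was lowest and Col-0 after avrB highest, with no overlap between groups. The response was 5.62 ± 0.29 in atgsnor1-3 and 2.32 ± 0.29 in Col-0, the interaction 3.29 ± 0.41 (adjusted p = 4.98e-05), and the gap after avrB -0.77 ± 0.29, which was not called. WRKY53, a transcription factor of senescence and defence, was the other call, at 1.39 ± 0.38 (adjusted p = 0.0181), and it was below Col-0 both after avrB (-1.60 ± 0.27) and at rest (-2.99 ± 0.27). WRKY53 lost its call without the second untreated Col-0 array (adjusted p = 0.0778), and likewise without the second untreated atgsnor1-3 array, the second atgsnor1-3 avrB array or the first Col-0 avrB array (adjusted p from 0.0609 to 0.0740). UGT76B1, which glucosylates isoleucic and salicylic acids, SAG101, a lipase-like partner of EDS1, and AT5G52810 had interactions of 2.44 ± 1.23, -0.39 ± 0.44 and 0.55 ± 0.28 and were not called. UGT76B1 was called without the second untreated atgsnor1-3 array, at 4.60; the 2 untreated arrays read 0.849 and 16.9 units.

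Several other defence genes were low in untreated atgsnor1-3. CHI, a chitinase, had 268 and 349 units in atgsnor1-3 after avrB and 20.2 and 28.6 units in untreated atgsnor1-3, against 1476 and 1708 units in Col-0 after avrB and 1084 and 781 units in untreated Col-0. It rose by 3.67 ± 0.23 in atgsnor1-3 and still ended below both Col-0 groups, with an interaction of 2.88 ± 0.32 (adjusted p = 2.07e-05). RING1, a RING finger ubiquitin ligase, had 644 and 641 units in atgsnor1-3 after avrB and 147 and 126 units in untreated atgsnor1-3, against 1125 and 1048 units in Col-0 after avrB and 2021 and 1380.1 units in untreated Col-0. It rose in atgsnor1-3 by 2.24 ± 0.19, while its change in Col-0, -0.62 ± 0.19, was not called, and the interaction was 2.86 ± 0.26 (adjusted p = 4.3e-06). GLR2.7, a glutamate receptor-like channel, was 3.95 ± 0.043 units in untreated atgsnor1-3 and 163 ± 30.7 in untreated Col-0 (SD, n = 2 each), a gap of -5.35 ± 0.21, and its interaction was 3.96 ± 0.29 (adjusted p = 7.51e-07). With the pseudocount the interactions of GRX480 and GLR2.7 were 2.11 and 2.36, and both stayed called. RING1 and GLR2.7 were chosen after their values were seen.

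A calcium influx is an early step after recognition of an effector, and calmodulin-like proteins bind the calcium. Of 6 calmodulin and calmodulin-like genes matched by name and tested, 2 were called higher (against 6.79% of all probe sets) and none lower. Their median interaction was 0.62. Genes known here only by a locus, AT3G01830 among them, were not in this list, so it is a part of the family. CML37 had 237 and 242 units in atgsnor1-3 after avrB and 1.78 and 5.59 units in untreated atgsnor1-3, against 137 and 136 units in Col-0 after avrB and 24.5 and 33.0 units in untreated Col-0. After avrB atgsnor1-3 was the highest group and at rest the lowest, and the interaction was 3.98 ± 0.90 (adjusted p = 0.00539), or 2.31 with the pseudocount. CML38 had an interaction of 3.62 ± 0.87 (adjusted p = 0.00846), with 437 and 436 units in atgsnor1-3 and 95.5 and 113 in Col-0 after avrB. Its untreated levels were near background, at 1.56 and 9.79 units in atgsnor1-3 and 19.8 and 6.64 in Col-0, and its interaction ran from 2.30 to 4.95 when single arrays were left out, lowest without the second untreated atgsnor1-3 array. CML41, which rose in both genotypes, and CML42, which rose in Col-0, had interactions of 0.64 ± 0.42 and -0.19 ± 0.29, not called. STZ, a zinc finger repressor of the abiotic stress response, had 2042 and 2152 units in atgsnor1-3 after avrB and 69.0 and 111 units in untreated atgsnor1-3, against 689 and 640.0 units in Col-0 after avrB and 143 and 163 units in untreated Col-0. The groups did not overlap, and the interaction was 2.46 ± 0.28 (adjusted p = 2.39e-05).

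**Figure D3:**
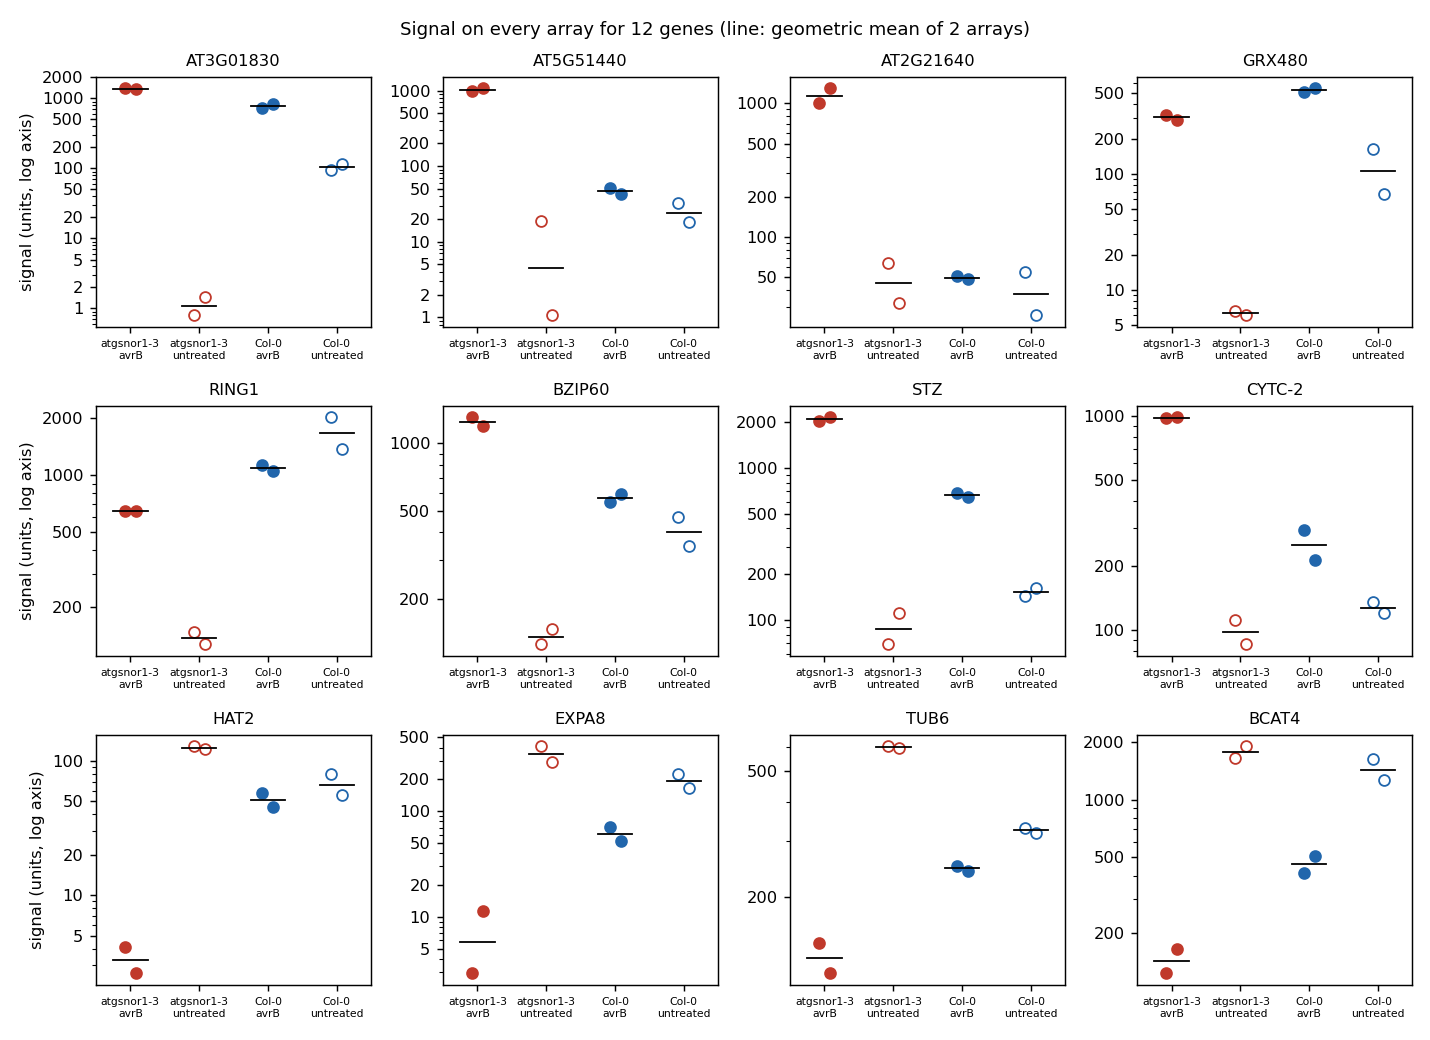
Signal in units on a log axis, on every array, for 12 genes; red marks atgsnor1-3 and blue Col-0, filled points are avrB 6 h and open points untreated, and each line is the geometric mean of the 2 arrays. AT5G51440 and AT2G21640 are high only in atgsnor1-3 after avrB, GRX480 and RING1 are low in untreated atgsnor1-3, and HAT2, EXPA8 and TUB6 are lowest in atgsnor1-3 after avrB.

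Among genes of protein folding stress in the endoplasmic reticulum, 2 transcription factors were called and the chaperones tested were not. When unfolded proteins build up there, the transcription factors bZIP60 and bZIP28 raise chaperones, and derlins take part in the export of misfolded proteins for degradation. Of 22 listed folding genes, 5 had a matched probe set and were tested. From these, 2 were called higher (against 6.79% of all probe sets), both transcription factors, and none lower, with a median of 0.75. BZIP60 had 1306 and 1194 units in atgsnor1-3 after avrB and 126 and 148 units in untreated atgsnor1-3, against 544 and 594 units in Col-0 after avrB and 468 and 345 units in untreated Col-0. It was lowest in untreated atgsnor1-3 and highest in atgsnor1-3 after avrB, with an interaction of 2.70 ± 0.24 (adjusted p = 3.75e-06). BZIP28 was at 1.16 ± 0.32 (adjusted p = 0.0195), a call lost without the second untreated Col-0 array (adjusted p = 0.0811), and likewise without the second array of any of the other 3 groups (adjusted p from 0.0523 to 0.106). The chaperone genes CRT1b, a calreticulin, and ATERDJ3B, a DnaJ co-chaperone, were below Col-0 both after avrB (-2.13 ± 0.24 and -1.33 ± 0.19) and at rest (-1.69 ± 0.24 and -2.07 ± 0.19), and their interactions, -0.44 ± 0.35 and 0.75 ± 0.26, were not called. Among the 3 derlins, a family added after its values were seen, DER1 (1.39 ± 0.30, adjusted p = 0.00463) and DER2.1 (1.34 ± 0.32, adjusted p = 0.00834) were called higher, although DER1 had no response called in either genotype. DER2.1 was at 0.94 without the second untreated atgsnor1-3 array, under the size limit.

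Autophagy encloses cell contents in vesicles for breakdown, and ESCRT proteins and the exocyst sort and deliver vesicles. Of 11 autophagy genes tested, 2 were called higher (against 6.79% of all probe sets) and none lower, and the interactions ran from 0.13 to 1.59 with a median of 0.51. ATG8B, a ubiquitin-like protein attached to the autophagosome membrane, had 169 and 272 units in atgsnor1-3 after avrB and 49.6 and 52.4 units in untreated atgsnor1-3, against 71.0 and 73.5 units in Col-0 after avrB and 62.9 and 42.5 units in untreated Col-0. Both atgsnor1-3 arrays after avrB stood above the other groups, and the interaction was 1.59 ± 0.35 (adjusted p = 0.00517). ATG8H, of the same family, was at 1.13 ± 0.35 (adjusted p = 0.0327) and lost its call in 9 alternatives, among them each one that left out a single array except the first untreated Col-0 and the first atgsnor1-3 avrB array (adjusted p from 0.0524 to 0.141). Without the second untreated Col-0 array ATG8H was at 0.73. VPS60.1 and ELC, subunits tied to the ESCRT machinery, and SEC6, an exocyst subunit, were chosen after their values were seen and had interactions of 2.18 ± 0.30, 1.40 ± 0.33 and 1.52 ± 0.30, all called. Among families added after their values were seen, 2 of 10 PRA1 genes, which encode Rab acceptors, were called higher (against 6.79% of all probe sets), PRA1.B4 at 2.20 ± 0.32 (adjusted p = 0.000174) and PRA1.H at 1.80 ± 0.51. PRA1.H lost its call without the second untreated Col-0, the first untreated atgsnor1-3, the first atgsnor1-3 avrB or either Col-0 avrB array (adjusted p from 0.0523 to 0.0722). Of 6 tetraspanins 1 was called higher and 1 lower, with a median of -0.71. TET8, a tetraspanin of secreted vesicles, had 2837 ± 39.5 units in atgsnor1-3 after avrB and 276 ± 15.6 untreated, against 1963 ± 221 in Col-0 after avrB and 773 ± 38.1 untreated (SD, n = 2 each), and its interaction was 2.02 ± 0.24 (adjusted p = 3.71e-05).

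S-nitrosoglutathione is formed from glutathione, and the glutathione and ascorbate pools together remove peroxide. Of 4 listed glutathione, thioredoxin and peroxide genes tested, 1 was called higher (against 6.79% of all probe sets), the glutathione reductase GR1, at 1.09 ± 0.24 (adjusted p = 0.00423), and it was at 0.98 without the second untreated atgsnor1-3 array and at 0.998 without the second atgsnor1-3 avrB array, both under the size limit. ATMDAR2, a monodehydroascorbate reductase that regenerates ascorbate, had 1073 and 1062 units in atgsnor1-3 after avrB and 244 and 252 units in untreated atgsnor1-3, against 841 and 818 units in Col-0 after avrB and 439.6 and 418 units in untreated Col-0. It was higher after avrB in both genotypes, by 2.11 ± 0.13 in atgsnor1-3 and by 0.95 ± 0.13 in Col-0. The Col-0 change was under the size limit of 1 and so was not called. The interaction was 1.16 ± 0.18 (adjusted p = 0.000302). SUFE2, an activator of cysteine desulfurases in iron-sulfur cluster assembly, was at 2.74 ± 0.35 (adjusted p = 7.03e-05). Both were chosen after their values were seen.

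The methionine sulfoxide reductases B, which repair oxidised methionines in proteins, moved in both directions. All 4 members tested were called, 2 higher (against 6.79% of all probe sets) and 2 lower (against 8.27% of all probe sets). This family was also added after its values were seen, so the count reflects that choice. MSRB3 had 168 and 275 units in atgsnor1-3 after avrB and 47.1 and 73.0 units in untreated atgsnor1-3, against 82.8 and 59.1 units in Col-0 after avrB and 103 and 69.8 units in untreated Col-0. MSRB5 had 15.9 and 19.9 units in atgsnor1-3 after avrB and 335 and 314 units in untreated atgsnor1-3, against 76.2 and 86.3 units in Col-0 after avrB and 326 and 318 units in untreated Col-0. The avrB-treated atgsnor1-3 arrays were thus the highest group for MSRB3 and the lowest for MSRB5, and the interactions were 2.15 ± 0.41 (adjusted p = 0.00179) and -2.20 ± 0.24 (adjusted p = 2.07e-05). MSRB9 was at 1.87 ± 0.52 (adjusted p = 0.0192) and MSRB6 at -1.73 ± 0.45 (adjusted p = 0.0135), and each lost its call when some single arrays were left out. MSRB9 was at 1.14 without the first untreated atgsnor1-3 array (adjusted p = 0.0638) and 1.27 without the first untreated Col-0 array (adjusted p = 0.0897), and also lost its call without either Col-0 avrB array or the second atgsnor1-3 avrB array (adjusted p from 0.0550 to 0.0614). MSRB6 lost its call without the first untreated Col-0 array (adjusted p = 0.0537) or the second atgsnor1-3 avrB array (adjusted p = 0.0671). Cross-hybridisation between such related genes was not tested.

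Further single genes with higher interactions included B120, an S-domain receptor-like kinase, at 3.16 ± 0.47, CCR2, a cinnamoyl-CoA reductase of lignin synthesis, at 3.76 ± 0.71, and Hsp70-2, a cytosolic heat shock protein, at 2.06 ± 0.26. CCR2 had 541 and 468 units in atgsnor1-3 after avrB and 4.72 and 1.35 units in untreated atgsnor1-3, against 209 and 213 units in Col-0 after avrB and 10.1 and 20.3 units in untreated Col-0. It was low in both untreated groups, rose in both genotypes, and with the pseudocount its interaction was 2.18. TIL, a temperature-induced lipocalin, was high throughout and had 4232 and 4535 units in atgsnor1-3 after avrB and 1232 and 1266 units in untreated atgsnor1-3, against 2190.3 and 2158 units in Col-0 after avrB and 1718 and 1324 units in untreated Col-0. Its interaction was 1.28 ± 0.23 (adjusted p = 0.000893), and only atgsnor1-3 after avrB stood above the other groups. B120, Hsp70-2 and TIL were chosen after their values were seen.

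Among the lower interactions, the largest of a probe set with 1 locus was AT2G39870, which had 1.79 and 1.29 units in atgsnor1-3 after avrB and 44.3 and 57.7 units in untreated atgsnor1-3, against 24.4 and 35.0 units in Col-0 after avrB and 23.1 and 27.4 units in untreated Col-0. Both atgsnor1-3 arrays after avrB were near background, untreated atgsnor1-3 was the highest group, and the Col-0 groups overlapped. The interaction was -5.27 ± 0.65 (adjusted p = 4.59e-05). The next was HAT2, an auxin-induced homeodomain-leucine zipper factor, with 4.11 and 2.62 units in atgsnor1-3 after avrB and 129 and 122 units in untreated atgsnor1-3, against 57.5 and 45.1 units in Col-0 after avrB and 80.2 and 55.5 units in untreated Col-0. Its response was -5.25 ± 0.33 in atgsnor1-3 and -0.39 ± 0.33, not called, in Col-0, and the interaction was -4.86 ± 0.47 (adjusted p = 7.04e-06). Since both ended near background in atgsnor1-3, the pseudocount moved them to -2.61 and -3.05.

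Some cell wall genes fell further in atgsnor1-3. Expansins loosen the wall and xyloglucan endotransglucosylases (XTH) cut and rejoin its xyloglucan, so both are used in growing tissue. Of 13 such genes tested, 4 were called lower (against 8.27% of all probe sets) and 1 higher (against 6.79% of all probe sets), with a median of -0.96. EXPA8 had 2.92 and 11.5 units in atgsnor1-3 after avrB and 413 and 295 units in untreated atgsnor1-3, against 70.9 and 52.6 units in Col-0 after avrB and 223 and 167 units in untreated Col-0. It fell in both genotypes and by more in atgsnor1-3, with an interaction of -4.25 ± 0.60 (adjusted p = 0.000145). EXPA16 and XTH32 fell in atgsnor1-3, while their changes in Col-0, 0.18 ± 0.24 and 0.51 ± 0.20, were not called. Their interactions were -1.69 ± 0.34 and -2.22 ± 0.29. EXPB1, an expansin of another class, was at -2.94 ± 0.80 (adjusted p = 0.0166) and lost its call with the pseudocount (-1.11), after quantile normalization, in the fit on 4 groups, and without the first array of atgsnor1-3 after avrB, of untreated atgsnor1-3 or of Col-0 after avrB (adjusted p from 0.0520 to 0.0635). The exception was XTH18, at 4.02 ± 1.03 (adjusted p = 0.0124), with 312 and 344 units in atgsnor1-3 after avrB and 1.76 and 1.92 units in untreated atgsnor1-3, against 103 and 151 units in Col-0 after avrB and 11.2 and 11.6 units in untreated Col-0. XTH18 began near background in untreated atgsnor1-3, was at 2.21 with the pseudocount, and lost its call without the first Col-0 avrB array (3.75, adjusted p = 0.0567).

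Further wall genes with lower interactions, picked after their values were seen, are given here and do not describe wall genes as a whole. In the other direction, the peroxidase Prx37 was called higher, at 2.88, and lost its call after quantile normalization. GH9C2, an endoglucanase, had 45.6 and 21.1 units in atgsnor1-3 after avrB and 423 and 351 units in untreated atgsnor1-3, against 151 and 177 units in Col-0 after avrB and 236 and 242 units in untreated Col-0. After avrB atgsnor1-3 was the lowest group and at rest the highest, and the interaction was -3.09 ± 0.39 (adjusted p = 5.81e-05). CSLC5, of the family that makes the xyloglucan backbone, was at -1.93 ± 0.36 and PRXR1, a secreted peroxidase, at -2.79 ± 0.29. PRXR1 was among the brightest genes, with 628 and 359 units in atgsnor1-3 after avrB and 6033 and 6491 units in untreated atgsnor1-3, against 3225 and 3166 units in Col-0 after avrB and 6291 and 5897 units in untreated Col-0. Of 13 trichome birefringence-like genes, a family that acetylates wall polymers, 3 were called lower (against 8.27% of all probe sets) and none higher, with a median of -1.21: TBL26 was at -3.30 ± 0.45, TBL25 at -1.83 ± 0.22 and TBL45 at -1.74 ± 0.30. This family and the glycosyl hydrolases of family 9 were added, and CSLC5 and PRXR1 chosen, after their values were seen.

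Some cytoskeleton genes fell in atgsnor1-3. Tubulins build the microtubules that guide wall deposition. Of 7 tubulin genes tested, 3 were called lower (against 8.27% of all probe sets) and none higher, with a median of -1.24. TUB6, a beta-tubulin, had 143 and 114 units in atgsnor1-3 after avrB and 601 and 593 units in untreated atgsnor1-3, against 251 and 242 units in Col-0 after avrB and 332 and 318 units in untreated Col-0. The groups did not overlap, atgsnor1-3 was the lowest after avrB and the highest at rest, and the interaction was -1.83 ± 0.22 (adjusted p = 4.13e-05). TUB5 was at -1.87 ± 0.31 and TUB7 at -1.24 ± 0.31. The actin-bundling LIM proteins WLIM1 and WLIM2a, chosen after their values were seen, were at -1.35 ± 0.26 and -1.68 ± 0.26, both called.

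None of 27 photosystem and light-harvesting probe sets, 20 of them for loci of the plastid genome, had a called interaction, against 15.1% of all. Their median was -0.31, with a range of -2.10 to 0.65 and 19 of the 27 below 0. The lack of calls thus does not show equal responses. RCA had 4044 and 4298 units in atgsnor1-3 after avrB and 6552 and 7364 units in untreated atgsnor1-3, against 2964 and 3959.9 units in Col-0 after avrB and 6403 and 5255 units in untreated Col-0. Both genotypes were lower after avrB, neither response was called, and RCA had an interaction of 0.02 ± 0.25 and a 95% interval of -0.50 to 0.55. PRK, the other leaf marker, fell in both genotypes and was called lower, at -1.09 ± 0.22 (adjusted p = 0.0029). Its interaction was under the size limit after quantile normalization (-0.83) and without the second untreated Col-0 array (-0.96) or the second atgsnor1-3 avrB array (-0.95). Of 3 chlorophyll synthesis genes tested, 1 was called lower (against 8.27% of all probe sets), PORB, a protochlorophyllide oxidoreductase. PORB had 835 and 558 units in atgsnor1-3 after avrB and 3492 and 3793 units in untreated atgsnor1-3, against 1205 and 1225 units in Col-0 after avrB and 2815 and 2323 units in untreated Col-0. It fell in both genotypes, and the interaction was -1.34 ± 0.31 (adjusted p = 0.00636).

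Nuclear genes for chloroplast proteins that were called lower, chosen after their values were seen, covered several functions. CHLI2, a subunit of magnesium chelatase in chlorophyll synthesis, was at -1.46 ± 0.32, and NdhN and CRR42, a subunit and an assembly factor of the NADH dehydrogenase-like complex, at -1.41 ± 0.30 and -2.32 ± 0.44. FTSZ2-2, which forms the plastid division ring, was at -1.41 ± 0.32, and PWD, a phosphoglucan water dikinase of starch breakdown, at -1.26 ± 0.24. THIC, which makes the pyrimidine part of thiamine, had 498 and 419 units in atgsnor1-3 after avrB and 3253 and 3222 units in untreated atgsnor1-3, against 1245 and 1204 units in Col-0 after avrB and 2628 and 2368 units in untreated Col-0. It fell in both genotypes, with responses of -2.83 ± 0.17 in atgsnor1-3 and -1.03 ± 0.17 in Col-0, and the interaction was -1.80 ± 0.24 (adjusted p = 8.97e-05).

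Of 18 listed aliphatic glucosinolate genes, 3 had a matched probe set and were tested. Among these 3, 2 were called lower (against 8.27% of all probe sets) and none higher, with a median of -1.71. These genes make sulfur-rich defence compounds from methionine. BCAT4, an aminotransferase at the first step of methionine chain elongation, had 123 and 165 units in atgsnor1-3 after avrB and 1663 and 1907 units in untreated atgsnor1-3, against 415 and 505 units in Col-0 after avrB and 1641 and 1264 units in untreated Col-0. It fell in both genotypes and by more in atgsnor1-3, with an interaction of -1.99 ± 0.29 (adjusted p = 0.000211). AT2G31790, the other call, was at -1.71 ± 0.32 (adjusted p = 0.00153).

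Of 15 serine carboxypeptidase-like genes, a family of peptidases and acyltransferases added after its values were seen, 7 were called lower (against 8.27% of all probe sets) and none higher, with a median of -1.31; 4 of the 7 kept their call under every alternative that tested them. The member scpl50 had 3.40 and 3.91 units in atgsnor1-3 after avrB and 60.6 and 57.0 units in untreated atgsnor1-3, against 22.3 and 22.2 units in Col-0 after avrB and 39.6 and 34.3 units in untreated Col-0. It ended near background in atgsnor1-3 after avrB, with an interaction of -3.28 ± 0.62 (adjusted p = 0.00154) and of -1.83 with the pseudocount. SCPL34 was at -1.83 ± 0.42, scpl48 at -1.32 ± 0.24 and scpl20 at -1.31 ± 0.24, all called under every alternative. Of 28 UDP-glycosyltransferases, which attach sugars to small molecules, 3 were called lower (10.7%, against 8.27% of all) and 1 higher (3.57%, against 6.79%), shares near those of all probe sets, with a median of -0.31. UGT72E1, which glucosylates lignin precursors, was at -3.63 ± 0.50, or -1.83 with the pseudocount, UGT71B1 at -2.29 ± 0.42, UGT76C1 at -1.86 ± 0.50 and, in the other direction, UGT87A2 at 1.77 ± 0.34. UGT76C1 lost its call without the second untreated Col-0, the first Col-0 avrB or the second atgsnor1-3 avrB array (adjusted p from 0.0576 to 0.0799). SWEET17, a vacuolar fructose carrier chosen after its values were seen, had 39.7 and 57.1 units in atgsnor1-3 after avrB and 294 and 183 units in untreated atgsnor1-3, against 169 and 134 units in Col-0 after avrB and 166 and 119 units in untreated Col-0. After avrB atgsnor1-3 was below every other group, and the interaction was -2.38 ± 0.36 (adjusted p = 0.000243).

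**Figure D4:**
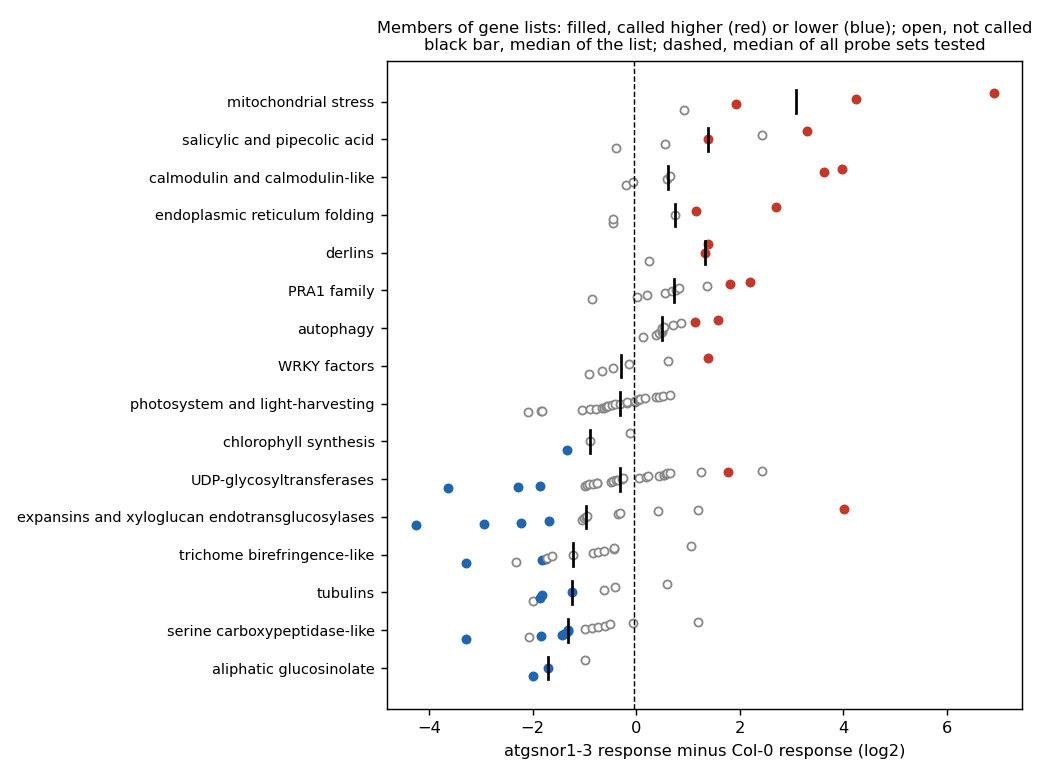
Each point is a tested member of a gene list, with its interaction (log2, atgsnor1-3 response minus Col-0 response) on the x axis; filled points are called and open points are not, the bars are list medians, and the dashed line is the median of all probe sets tested (-0.04). The mitochondrial list has a median of 3.10, the serine carboxypeptidase-like family one of -1.31, and no photosystem member is called.

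A small group rose in Col-0 with no response called in atgsnor1-3. Of these, AT1G22900 had 46.8 and 27.6 units in atgsnor1-3 after avrB and 30.5 and 53.2 units in untreated atgsnor1-3, against 76.9 and 62.4 units in Col-0 after avrB and 4.16 and 4.64 units in untreated Col-0. Untreated Col-0 was near background on both arrays and the other 3 groups were well above it, so the interaction of -4.14 ± 0.59 (adjusted p = 0.000166) rests on the untreated Col-0 level. AT1G64700 and AT5G49560 had the same layout, with 3.16 and 6.40 and 5.71 and 5.14 units in untreated Col-0, and interactions of -3.29 ± 0.58 and -2.86 ± 0.64. With the pseudocount the 3 interactions were -2.64, -1.91 and -1.71. ORA47, an ERF transcription factor of jasmonate synthesis, was 1 of 2 tested members of a list of 30 jasmonate genes. That list does not hold every jasmonate gene tested. ORA47 had 58.4 and 37.9 units in atgsnor1-3 after avrB and 75.8 and 91.3 units in untreated atgsnor1-3. ORA47 had 33.6 and 35.8 units in Col-0 after avrB and 14.6 and 16.6 units in untreated Col-0. It rose in Col-0 by 1.16 ± 0.32, its change in atgsnor1-3 was -0.82 ± 0.32 and not called, and the interaction was -1.98 ± 0.45 (adjusted p = 0.00593). The other tested member of that list, PDF1.2, a defensin, was at -3.05 ± 1.08 and not called (adjusted p = 0.0612). It was called without the first untreated atgsnor1-3 array (-4.52) or the first untreated Col-0 array (-3.90). It was also called with the pseudocount and with the dimmest 60% left out. BGLU40, a beta-glucosidase, rose in Col-0 by 1.18 ± 0.22, with an interaction of -1.65 ± 0.31. BGLU44, of the same family, fell in atgsnor1-3 and had 267 and 206 units in atgsnor1-3 after avrB and 1732 and 2364 units in untreated atgsnor1-3, against 792 and 832 units in Col-0 after avrB and 1506 and 1439 units in untreated Col-0. Its interaction was -2.25 ± 0.24 (adjusted p = 1.78e-05); the family, added after its values were seen, had 3 of 9 members called lower (against 8.27% of all probe sets) and 1 higher (against 6.79% of all probe sets), and the higher call was lost under some alternatives.

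A rise of different size in the 2 genotypes was seen for ATPMEPCRB, a pectin methylesterase chosen after its values were seen, which had 84.8 and 107 units in atgsnor1-3 after avrB and 15.9 and 33.3 units in untreated atgsnor1-3, against 887 and 1075 units in Col-0 after avrB and 62.8 and 59.4 units in untreated Col-0. Both genotypes rose and Col-0 after avrB was far above all other groups, with an interaction of -1.95 ± 0.42 (adjusted p = 0.00404).

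Some genes responded strongly in both genotypes without a called interaction. LTI30, a dehydrin, had 1888 and 2106 units in atgsnor1-3 after avrB and 76.6 and 85.0 units in untreated atgsnor1-3, against 2089 and 1963 units in Col-0 after avrB and 107 and 96.4 units in untreated Col-0. It rose by 4.63 ± 0.21 in atgsnor1-3 and 4.32 ± 0.21 in Col-0, and the interaction was 0.31 with a 95% interval of -0.33 to 0.95. COR47, another dehydrin, was at 0.11 (-0.49 to 0.72) and HCT, a transferase of lignin synthesis, at 0.11 (-0.31 to 0.53). The cold and dehydration list also held COR15B and COR15A, chloroplast cold-response proteins, and 1 of its 4 tested genes was called lower (against 8.27% of all probe sets). COR15B was at -1.06 ± 0.34 (adjusted p = 0.0403) and lost its call without any single array but the first untreated atgsnor1-3 array (adjusted p from 0.0581 to 0.154), with -0.74 the nearest to 0, without the second untreated atgsnor1-3 array. COR15A, at -0.98 ± 0.28, was not called, but was called after quantile normalization and without the first array of untreated atgsnor1-3, of Col-0 after avrB or of untreated Col-0 (-1.21 to -1.12). WRKY6, a senescence and defence factor, was at 0.62 (-0.53 to 1.77), but was called without the first untreated Col-0 array, at 1.48 (adjusted p = 0.0110). These intervals leave room for differences under the size limit, and for WRKY6 above it.

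Set directly against the other genotypes, the atgsnor1-3 response differed at 699 probe sets from that of sid2 (5.12%, with 1.99% higher and 3.14% lower) and at 1480 from that of atgsnor1-1 (10.8%, with 5.12% higher and 5.72% lower). Without the second atgsnor1-3 avrB array the first count was 426, and 138 of those were higher, against 271 on all arrays; without the first untreated atgsnor1-3 array 523 were higher. All 3 comparisons share the atgsnor1-3 arrays, so they are not independent, and their values are given side by side. AT2G21640 was higher by 4.40 ± 0.56 than the atgsnor1-1 response and by 4.71 ± 0.56 than the sid2 response, beside 4.26 ± 0.56 against Col-0. HAT2 was at -4.57 ± 0.47 and -3.79 ± 0.47, beside -4.86 ± 0.47. XTH32 was at -1.37 ± 0.29 and -1.81 ± 0.29, beside -2.22 ± 0.29. All 6 differences from atgsnor1-1 and sid2 for these 3 genes were called. Most other genes named above are given in the text without these differences, so a response shared with sid2 cannot be read from their values.

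Of the 15 largest higher interactions, 4 were called in the same direction against sid2 and 14 against atgsnor1-1. For the 15 largest lower interactions these counts were 10 and 11. Of the 15 largest higher interactions, that of AT3G01830 was not called against sid2. CML38, which is not among the 15, was not called against sid2 either. AT3G01830 was at 6.14 ± 0.36 against atgsnor1-1 and 1.05 ± 0.36 against sid2, the second with a 95% interval of 0.27 to 1.82 (adjusted p = 0.104). Its untreated level in sid2 was 1.60 ± 0.313 units, beside 1.12 ± 0.455 in atgsnor1-3 and 105 ± 15.3 in Col-0 (SD, n = 2 each). CML38 was at 3.30 ± 0.87 against atgsnor1-1 and 2.42 ± 0.87 against sid2 (95% interval 0.57 to 4.28, adjusted p = 0.116). CML38 had 437 and 436 units in atgsnor1-3 after avrB and 432 and 481 units in sid2 after avrB.

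**Figure D5:**
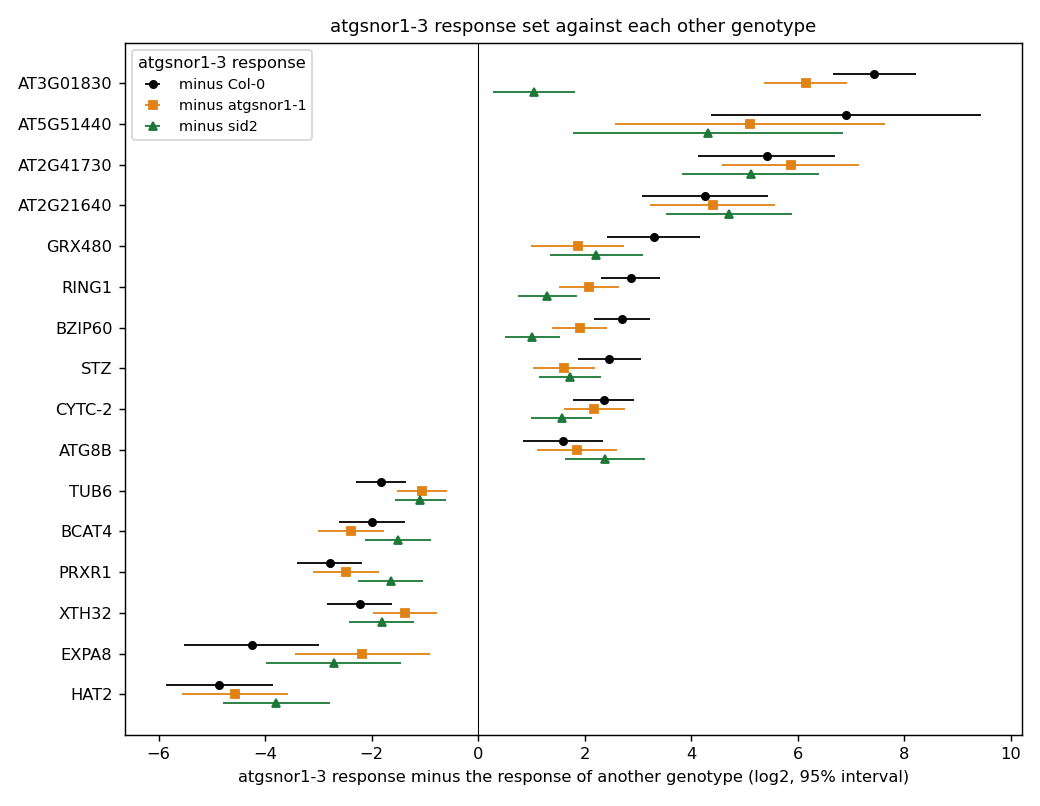
The atgsnor1-3 response minus the response of Col-0 (black), atgsnor1-1 (orange) and sid2 (green) for 16 genes, on the log2 scale with 95% intervals. AT2G21640 lies above 0 in all 3 comparisons and HAT2 below 0, while AT3G01830 is at 7.44 against Col-0 and 1.05 against sid2.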

How the data were processed

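Leaf RNA of 16 samples in 8 groups of 2 was measured on ATH1 arrays; the deposited values are linear signal intensities, which the authors made in GCOS by the MAS5 method, per the submitters' processing notes; versions and scaling were not given in the sources used here. Deposited values run from 0.0236 to 18430 units, and no total depth applies; the number of arrays limits the precision. Groups come from the sample titles. From 22810 probe sets, 64 controls and the dimmest 40% by mean log2 intensity (under 20.2 units) were left out, which leaves 13647. Group means of log2 values were fitted on all 16 arrays with limma 3.58.1 (lmFit, eBayes with a trend, 8 residual degrees of freedom) in R 4.3.3. Tests were two-sided, with Benjamini-Hochberg adjustment over all probe sets. The fit was also run on simulated arrays with independent normal noise of the fitted spread. That run cannot check noise near background or arrays from shared plants. Gene names come from GEO's platform annotation and RefSeq. Of 22746 probe sets without controls, 13436 were matched to a single locus. Many listed genes thus had no matched probe set, and the tested members are a part of each such list. Tested were 3 of 13 chlorophyll synthesis, 4 of 14 cold and dehydration, and 4 of 19 glutathione, thioredoxin and peroxide genes.

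The members and gene lists were chosen with earlier results of these data known. Genes were drawn from the 15 largest interactions of either sign at probe sets with 1 locus and the 4 largest of each response class. Others were list members, tissue markers and, where so stated, genes chosen after their values were seen. Not every gene of these sets was named. Alternatives were quantile normalization, median centring, 2 filters, a pseudocount of 9.51 units (the 25th percentile), a variance without a trend, a replicate block, a fit on 4 groups, and leaving out each of the 8 arrays in turn. Same-numbered arrays did not vary together (correlations of deviations from -0.058 to 0.033 over 6 pairs), so the numbers were not used as pairs.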

Additional observations from a re-analysis of the deposited data

Results flagged for a closer look

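The avrB response differed between atgsnor1-3 and Col-0 at 926 probe sets in the higher and 1129 in the lower direction, and between atgsnor1-3 and the other genotypes at 699 (sid2) and 1480 (atgsnor1-1), each by a test of the difference itself (limma, adjusted p under 0.05 and a log2 size of at least 1). Of the 30 genes with the largest interactions of either sign, 14 were also called in the same direction against both sid2 and atgsnor1-1; these comparisons share the atgsnor1-3 arrays, so the 14 are a description. Against Col-0, 4 were higher: AT5G51440 at 6.91, AT1G57630 at 6.28, AT2G41730 at 5.42 and AT3G13950 at 4.87. The other 10 were lower: AT2G39870 at -5.27, HAT2 at -4.86, AT2G25270 at -4.55, AT4G01130 at -4.32, AT5G42860 at -4.31, AT3G20820 at -4.29, EXPA8 at -4.25, AT5G06610 at -4.02, AT2G38970 at -3.93 and AT5G48500 at -3.88.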

How the results depend on the processing

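Of 94 genes with a called interaction named in the report and under the other observations, 78 kept their call under every alternative that tested them. No called interaction of these genes changed sign. Prx37 is not counted among the 94, and its call was lost after quantile normalization. Also not counted are AT5G12440 (-4.79) and AT4G09890 (-4.47), which are among the 15 largest lower interactions. Their calls were lost in 3 and 9 alternatives. The interaction count ran from 1601 to 2286 when single arrays were left out; it was 1893 after quantile normalization, 1699 with the dimmest 60% left out, 1633 in the fit on 4 groups and 2041 with a replicate block, whose numbers do not pair the arrays. With the dimmest 60% left out, calls numbered 1814 for falls in atgsnor1-3, 194 for higher at rest, 391 for higher after avrB and 37 for a lower interaction with a rise in Col-0 and no call in atgsnor1-3; fewer probe sets were tested there. Leaving out single arrays gave 426 to 1045 calls against sid2 (138 to 523 higher), 208 to 314 higher interactions that were higher after avrB, 103 to 229 lower interactions that were higher at rest, and 38 to 103 lower interactions with a rise in Col-0 and no call in atgsnor1-3. The arrays of sid2 and atgsnor1-1 were not left out in turn. The cause of these changes was not tested. The other calls lost belong to WRKY53 (0.93 with the pseudocount; adjusted p = 0.0573 in the fit on 4 groups), BZIP28 (adjusted p = 0.0522 in the fit on 4 groups), MSRB9 (adjusted p = 0.0540 without a variance trend and 0.0760 in the fit on 4 groups), PRK (-0.83 after quantile normalization), EXPB1, ATG8H, GSTU16, COR15B, PRA1.H, UGT76C1, petN, rpl36 (adjusted p = 0.0505 with the replicate block) and, only when single arrays were left out, MSRB6, XTH18, DER2.1 and GR1. Signal over background limits the size of the largest interactions, since many start or end under 20.2 units.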

Other observations

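For these further families, the shares over all probe sets tested are 6.79% called higher and 8.27% called lower; all but the glutathione transferases and cytochromes P450 were added after their values were seen. Of 7 glutathione S-transferases tested, which conjugate glutathione to small molecules, 2 were called lower and none higher, with a median interaction of -0.73; GSTU27 was at -1.89 ± 0.20. GSTU16, at -1.14 ± 0.35, lost its call with no filter, in the fit on 4 groups and without any single array but the first of either untreated group (adjusted p from 0.0616 to 0.116). Of 11 cytochromes P450, 1 was called higher (9.09%, near the share of all), CYP71B6, at 1.15 ± 0.24. Of 7 subtilases, which are secreted proteases, SBT3.5 was called higher at 2.80 ± 0.29 and 2 were called lower, of which ARA12, at -1.46 ± 0.23, was called under every alternative. Of 8 IQ-domain proteins, which bind calmodulin, 3 were called lower, 2 of them under every alternative, and none higher, with a median of -0.55; IQD24 was at -2.05 ± 0.30 and IQD31 at -1.23 ± 0.26. Among 6 tetraspanins, TET8 was called higher, as given above, and TET3 lower, at -1.46 ± 0.25. Of 69 probe sets for loci of the chloroplast genome, petN was called higher (1.45 ± 0.43) and rpl36 lower (-1.17 ± 0.38), 1.45% in each direction, with a median of -0.30. Both calls were lost without a variance trend, in the fit on 4 groups and without several single arrays, with petN at 0.99 without the first Col-0 avrB array and rpl36 at -0.71 without the first untreated Col-0 array.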
